A study of Homo sapiens with 15 samples.

Results

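The fetal and adult genes of the human beta-globin cluster were followed across 15 maps of open chromatin. The sites are all peaks that overlap the stretch of chromosome 11 from 3′ HS1, below the cluster, to just above HBG2. Overlapping peaks of different libraries were joined into regions, and this stretch held 9 of the 120992 regions of the whole series. They were made of 119 of 1070377 peaks, with 6 to 9 peaks in each library.

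The cells were K562, an established human erythroleukemia line, and each library came from nuclei digested with a nuclease, so that a peak marks DNA open to the enzyme. All cells carried lentivirus with a puromycin resistance gene and were selected with puromycin. The libraries formed 5 groups of 3: dCas9-KRAB with gRNA Cr4, dCas9-KRAB with gRNA Cr10, dCas9 with Cr4, dCas9 with Cr10, and dCas9-KRAB with no gRNA. Both gRNAs were aimed at HS2, an enhancer of the locus control region, whose peak summit lay 25.9 kb from that at HBG2 and 46.1 kb from that at HBD.

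dCas9 is a Cas9 that binds DNA through its gRNA without cutting it, and KRAB is a repressor domain that recruits histone methyltransferases. No library of untransduced cells, or of dCas9 without a gRNA, was analysed here. A target field lists HS2 for every sample, also those with no gRNA, so the groups follow the titles and the design text. Libraries with Cr4 or Cr10 are called guided, and the 6 guided dCas9-KRAB libraries are set against the other 9 where groups are pooled. The labels do not say whether the numbered libraries are separate cultures, so p-values measure only the spread between libraries, which may be technical.

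Beta-like globin genes are switched on in sequence during development, and their order on the chromosome follows that sequence, starting nearest the locus control region. HBG2 and HBG1 encode the nearly identical gamma chains of fetal hemoglobin. HBD encodes the delta chain of the minor adult hemoglobin, and HBB encodes the beta chain of the major one. K562 cells make embryonic and fetal globin chains and very little adult beta chain. 3′ HS1 is a hypersensitive site bound by the insulator factor CTCF that closes the cluster at its HBB end.

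The promoter of HBD is shown because HBD was the 1 adult gene whose start had a peak in all 15 lists. The sequence is from RefSeq, GRCh38.p14, chr11:5234434-5234733, minus strand, 250 bases before and 50 bases from the gene start. HBD was the 1 of the 4 genes that matched the promoter table. Capitals mark the matches to CCAAT, to AGATAA read on the other strand (TTATCT), and to ATAAAA.
HBD promoter: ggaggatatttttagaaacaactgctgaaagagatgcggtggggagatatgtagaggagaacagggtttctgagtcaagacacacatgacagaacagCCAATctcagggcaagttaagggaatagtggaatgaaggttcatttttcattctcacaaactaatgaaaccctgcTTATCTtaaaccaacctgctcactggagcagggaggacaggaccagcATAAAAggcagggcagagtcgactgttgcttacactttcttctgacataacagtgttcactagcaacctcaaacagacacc

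CCAAT, the letters of the box that NF-Y binds, began at -153 from the start, on the gene's strand. 34.6% of the 35116 promoters of the same length in the table hold it on either strand. AGATAA, the letters that GATA1 favours, began at -78, and 10.3% of promoters hold it. ATAAAA, in the place of a TATA box, began at -31, and 16% of promoters hold it. No match was found on either strand for CACCC, the KLF1 box, held by 59.9% of promoters, for TGACCA, a BCL11A motif, held by 10.7%, or for TATAAA, held by 11.5%. The NF-E2 motif had no match either and was in 0.154% of promoters. The motifs were searched on both strands, and a match is a description of these letters only.

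The deposited files give no fragment counts and the depth of the libraries is unknown. The lists held 53147 to 94777 peaks. For each peak the authors' fold and p-value columns together gave a whole number of fragments at the summit, the implied pileup, in 100% of peaks of every list within 0.01 in -log10 p. The quiet background implied by the same columns ran from 2.21 to 5.81 fragments and stands in for depth. To set libraries side by side, the pileup plus 1 was divided by the library's median at the 38888 regions found in every one of the 15 lists, so that 1 is the median common site. This ratio is called relative pileup. A second measure, the rank percentile, orders the 53098 strongest peaks of each list by fold, with 100 for the strongest and 0 where no peak was kept.

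Of the 9 sites, 6 had a peak in all 15 lists: HBG2, HBG1, HBD, a pair of sites below the HBB start and 3′ HS1. In hg19 the HBG2 peak spanned chr11:5275738-5276312 and the HBG1 peak chr11:5270839-5271354. Their median summits were 4.9 kb apart, each about 0.1 kb upstream of the recalled gene start. HBD's peak spanned chr11:5255349-5256040, and 3′ HS1 spanned chr11:5226033-5226442. The median HBD summit lay about 0.1 kb to the gene side of its recalled start. That start is rounded and was not checked, so whether the summit lies inside the gene cannot be told. Summit positions varied by 71 bp at HBG2, 51 bp at HBG1, 44 bp at HBD and 90 bp at 3′ HS1 over the 15 libraries. HBG2 and HBG1 are near-identical copies, so fragments from one may have been placed on the other.

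**Figure D1:**
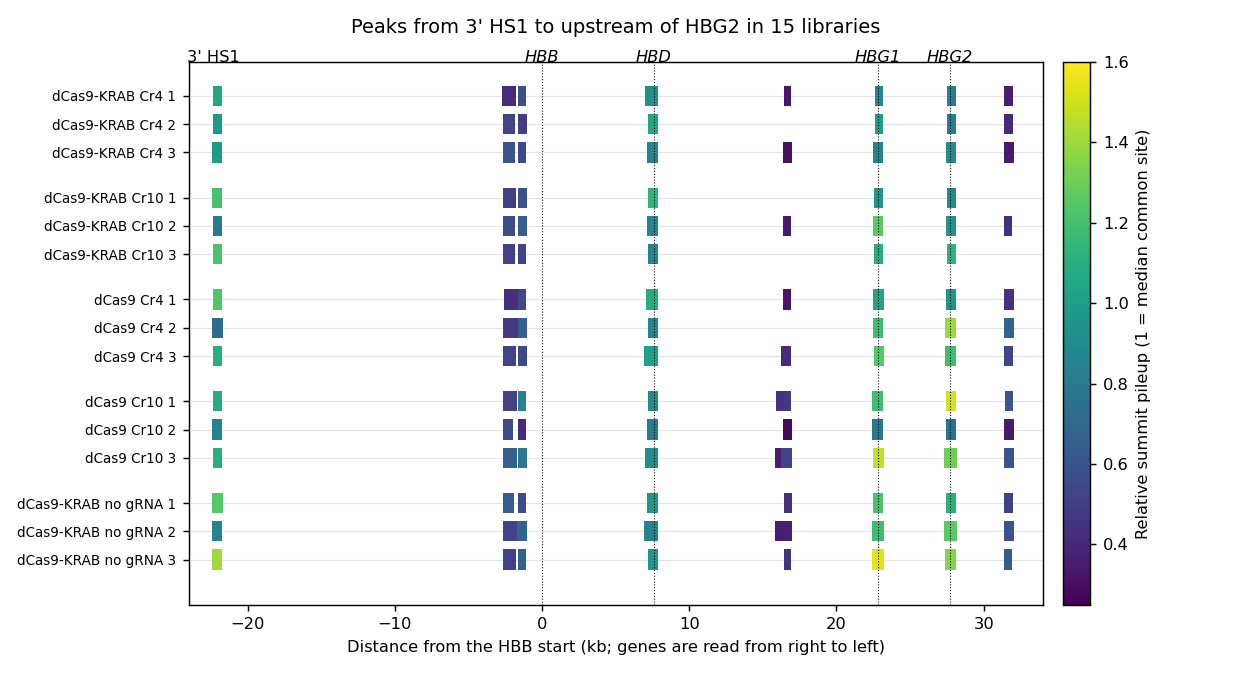
Peaks along the locus in each of the 15 libraries, as distance in kb from the HBB start, coloured by relative pileup (1 = median common site). Dotted lines mark the gene starts; HBG2, HBG1, HBD and 3′ HS1 have a peak in every library, the HBB start in none, and the site upstream of HBG2 is absent from 2 libraries with dCas9-KRAB and Cr10.

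The summits of HBG2, HBG1, HBD and 3′ HS1 were close to the median of common sites. Over the 15 libraries the mean relative pileup (2 to the mean log2 value) was 1.06 at HBG2, 1.11 at HBG1, 0.935 at HBD and 1.04 at 3′ HS1. Between 46.5% and 57.1% of the common regions had a lower mean. In order of level these were HBG1, HBG2, 3′ HS1 and HBD. HBG1 and HBG2, and HBG2 and 3′ HS1, differed by less than their spread over libraries. HBD minus 3′ HS1 averaged -0.15 in log2 pileup (SD 0.22, n = 15) and was above 0 in 4 of 15 libraries. The SD of the log2 value was 0.32 at HBG2, 0.28 at HBG1 and 0.27 at 3′ HS1, against 0.14 at HBD. The SD at HBG2 was larger than that of 93.8% of common regions, while 17.5% of regions had a lower SD than HBD.

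The authors' fold gave another order, since it divides by the local background. 3′ HS1 had the highest fold of the 6 sites in 14 of 15 libraries, from 10.2 to 14.7. HBD ran from 9.203 to 11.9, HBG2 from 6.30 to 9.09 and HBG1 from 6.52 to 9.28. The local background at the fetal genes was the higher one: over the quiet background it averaged 1.29 at HBG2 and 1.495 at HBG1 on the log2 scale in the 6 guided dCas9-KRAB libraries, and 1.502 and 1.59 in the other 9. At HBD it was 0.77 in the 6 and 0.74 in the other 9, and at 3′ HS1 0.63 and 0.65.

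HBG2, the fetal gene nearer the locus control region, had a lower relative pileup in cells with guided dCas9-KRAB. It was 0.819, 0.825 and 0.893 with dCas9-KRAB and Cr4, and 0.903, 0.929 and 1.13 with dCas9-KRAB and Cr10. dCas9 alone gave 0.958, 1.40 and 1.19 with Cr4 and 1.51, 0.756 and 1.302 with Cr10, and dCas9-KRAB without a gRNA gave 1.11, 1.25 and 1.35. The groups overlapped: dCas9-KRAB with Cr10 replicate 3 stood above 3 of the other 9, and dCas9 with Cr10 replicate 2 had the lowest value of all. The 6 libraries averaged 0.917 ± 0.114 (SD, n = 6) and the other 9 averaged 1.20 ± 0.233 (SD, n = 9).

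On the log2 scale this difference at HBG2 was -0.37 (SE 0.12), or 0.772 times. By the authors' fold, which divides by the local background, it was -0.16. In an exact two-sided permutation test over the 5005 splits of 6 against 9 libraries it had p = 0.0220, and leaving out each library in turn gave p between 0.00233 and 0.0455. Limma, a linear model fitted across the 38888 common regions, gave an unadjusted p of 0.00569, the 9th smallest of all regions, and an adjusted p of 1.00 (Benjamini-Hochberg over all regions). The difference therefore passed the test of this site alone and did not pass the correction over the genome.

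HBG1, the fetal gene farther from the locus control region, had the same direction with more overlap. Its relative pileup was 0.875, 1.00 and 0.866 with dCas9-KRAB and Cr4, and 0.968, 1.26 and 1.09 with dCas9-KRAB and Cr10. It was 1.04, 1.18 and 1.25 with dCas9 and Cr4, 1.18, 0.782 and 1.47 with dCas9 and Cr10, and 1.22, 1.18 and 1.54 without a gRNA. dCas9 with Cr10 replicate 2 was again the lowest of all, and dCas9-KRAB with Cr10 replicate 2 stood above 7 of the other 9. The 6 libraries averaged 1.01 ± 0.147 (SD, n = 6) and the other 9 averaged 1.20 ± 0.221 (SD, n = 9).

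HBG1's difference was -0.24 in log2 (SE 0.11), or 0.845 times, and did not pass the exact permutation test (p = 0.0931). Without dCas9 with Cr10 replicate 2 it was -0.32 with an exact p of 0.0107, and without dCas9-KRAB with Cr10 replicate 2 it was -0.31 with an exact p of 0.0435. Limma gave an unadjusted p of 0.0437, the 232nd smallest, and an adjusted p of 1.00. By the authors' fold HBG1 was at -0.14 in log2. As plain means the fold at HBG1 was 7.01 in the 6 and 7.74 in the other 9 (exact permutation p = 0.0218), and at HBG2 7.28 and 8.14 (exact permutation p = 0.0290). Limma's unadjusted p for HBG1 pileup ran from 0.00256 to 0.122 when libraries were left out in turn, and was over 0.05 without any one of 9 of them.

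Of the 6 sites with a peak in all lists, HBG2 and HBG1 were the 2 that limma found lower in the 6 libraries at an unadjusted p under 0.05, and 0.399% of the 38888 regions were. After adjustment 0 of 6 sites and 0.0% of regions passed. The same model on the target itself, HS2, gave -0.71 (SE 0.12), the smallest p of all regions, with an adjusted p of 0.187.

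**Figure D2:**
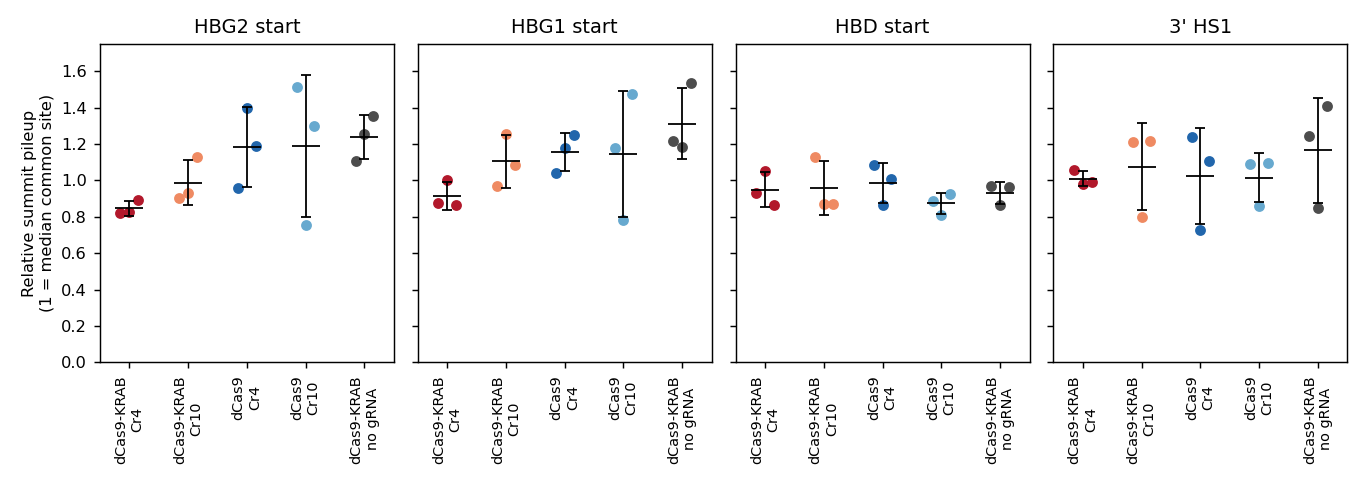
Relative summit pileup (1 = median common site) at HBG2, HBG1, HBD and 3′ HS1, 1 point per library in 5 groups of 3, with the mean and SD as bars. At HBG2 the dCas9-KRAB Cr4 libraries lie between 0.819 and 0.893 and the libraries without a gRNA between 1.11 and 1.35, while at HBD all groups overlap.

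HBD, the adult gene with a peak in every list, had no difference in relative pileup larger than the spread between libraries. Its relative pileup was 0.931, 1.05 and 0.866 with dCas9-KRAB and Cr4, and 1.13, 0.871 and 0.870 with dCas9-KRAB and Cr10. dCas9 gave 1.08, 0.863 and 1.01 with Cr4 and 0.889, 0.808 and 0.922 with Cr10, and dCas9-KRAB without a gRNA gave 0.969, 0.864 and 0.963. By pileup the groups overlapped, and the difference of the 6 libraries from the other 9 was 0.03 in log2 (SE 0.10; exact permutation p = 0.676, limma adjusted p = 1.00).

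3′ HS1 served as a site of the same locus far from the gRNA target. It had a relative pileup of 1.06, 0.982 and 0.991 with dCas9-KRAB and Cr4, and of 1.21, 0.800 and 1.22 with dCas9-KRAB and Cr10. It had 1.24, 0.726 and 1.11 with dCas9 and Cr4, 1.09, 0.859 and 1.09 with dCas9 and Cr10, and 1.25, 0.845 and 1.41 without a gRNA. Again the groups overlapped, and the difference was -0.02 in log2 (SE 0.13; exact permutation p = 0.890, limma adjusted p = 1.00).

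A difference between sites of 1 library needs no scaling between libraries. HBG2 minus 3′ HS1 in log2 pileup averaged -0.18 ± 0.23 in the 6 guided dCas9-KRAB libraries (SD, n = 6) and 0.17 ± 0.42 in the other 9 (SD, n = 9), a gap of -0.35 (exact permutation p = 0.0851). That gap was -0.43 (exact p = 0.0455) without dCas9-KRAB with Cr10 replicate 2 and -0.42 (exact p = 0.0396) without dCas9 with Cr4 replicate 1. HBG1 minus 3′ HS1 averaged -0.05 ± 0.36 in the 6 and 0.18 ± 0.31 in the other 9, a gap of -0.22 (exact p = 0.218, or 0.0295 without dCas9-KRAB with Cr10 replicate 2). HBD minus 3′ HS1 differed by 0.05 (exact p = 0.664). HBG2 minus HBG1 differed by -0.13 (exact p = 0.229), so neither fetal gene was shown to differ more than the other.

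The fetal gene starts varied together over libraries. Over all 15 libraries their log2 relative pileups had a Pearson r of 0.79 (permutation p = 0.00055, adjusted 0.00275 over the 5 relations computed) and a Spearman rho of 0.71 (permutation p = 0.00389, adjusted 0.0194). Without the 2 libraries farthest from the median r was 0.71, and it was 0.48 within the 6 and 0.79 within the other 9. The near-identity of the genes is shared by every point and its part in this r was not tested. Of all 38888 common regions, 96 had a higher r with HBG2 than HBG1 did.

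With HS2, the gRNA target, HBG2 had r = 0.43 (rho 0.51), HBG1 0.28 (rho 0.37), HBD 0.20 (rho 0.20) and 3′ HS1 0.44 (rho 0.48). None passed the adjusted permutation test, with adjusted p between 0.185 and 0.470 for r. Without the 2 libraries farthest from the median at HS2, dCas9-KRAB with Cr10 replicates 2 and 3, r was 0.54 at HBG2, 0.56 at HBG1, -0.02 at HBD and 0.50 at 3′ HS1. Within the 6 guided dCas9-KRAB libraries, r with HS2 was -0.63 at HBG2, -0.91 at HBG1, 0.44 at HBD and 0.44 at 3′ HS1. Within the other 9 it was 0.22, 0.36, 0.45 and 0.77 in the same order. These values within the 6 and within the 9 were not tested.

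**Figure D3:**
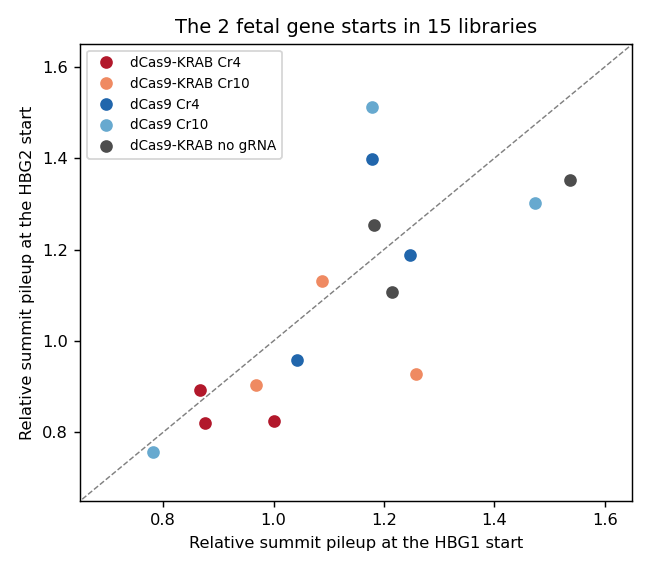
Relative summit pileup at HBG2 (vertical) against HBG1 (horizontal), 1 point per library, coloured by group, with the line of equal values dashed. The points follow the line (r = 0.79, n = 15); the 3 dCas9-KRAB Cr4 libraries lie at the low end, with dCas9 Cr10 replicate 2 below them.

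By rule, the 3 regions whose log2 relative pileup followed each gene start most closely over the 15 libraries were sought among the 38888. For HBG2 they were chr1:189118636-189119240 (r = 0.92), chr6:21971779-21972127 (0.91) and chr2:143791912-143792228 (0.91). HBG1's were chr15:85567201-85567614 (r = 0.93), chr7:35043080-35043944 (0.91) and chr14:65768592-65769321 (0.90). HBD's were chr6:105130929-105131317 (r = 0.92), chr11:47939358-47940127 (0.91) and chr15:89672759-89673067 (0.91). None of them lies in the globin cluster. They are the extremes of 38888 values of r over 15 points, and each point is 1 library with a depth common to all its regions.

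Peaks at the fetal genes also covered fewer bases. This measure, the bases covered by the peak, was added after values had been seen. Unlike relative pileup and rank percentile, it was not scaled for depth or list length, and their part in it was not tested. The HBG2 peak covered 297 to 386 bp, with a median of 313.5 bp, in the 6 guided dCas9-KRAB libraries. In the other 9 it covered 338 to 572 bp, with a median of 418 bp. The means were 329 ± 37.0 bp (SD, n = 6) and 440 ± 77.8 bp (SD, n = 9), with an exact permutation p of 0.00679. HBG1's peak covered 287 to 425 bp (median 333 bp) in the 6 and 366 to 477 bp (median 443 bp) in the other 9. Its means were 347 ± 59.1 bp (SD, n = 6) and 433 ± 37.6 bp (SD, n = 9), with an exact permutation p of 0.00539.

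Both fetal genes still overlapped between the pooled groups in width. By group the HBG2 peak covered 300, 297 and 363 bp with dCas9-KRAB and Cr4 and 307, 386 and 320 bp with dCas9-KRAB and Cr10. It covered 392, 437 and 418 bp with dCas9 and Cr4, 373, 338 and 572 bp with dCas9 and Cr10, and 401, 536 and 491 bp without a gRNA. Against no gRNA, limma's log2 width at HBG2 was -0.57 with dCas9-KRAB and Cr4 (SE 0.18, unadjusted p = 0.00833). With dCas9-KRAB and Cr10 limma gave -0.49 (SE 0.18, unadjusted p = 0.0185). The HBG2 widths of neither group reached those without a gRNA. The share of all regions with such a gap in width was not computed. HBG1 widths of both groups overlapped those without a gRNA. They reached 409 bp with dCas9-KRAB and Cr4 and 425 bp with dCas9-KRAB and Cr10, where the lowest without a gRNA was 401 bp. At HBD the peak averaged 435 ± 77.4 bp in the 6 and 482 ± 134 bp in the other 9 (exact permutation p = 0.455), and at 3′ HS1 331 ± 32.5 bp and 356 ± 36.6 bp (exact p = 0.201). Limma on log2 width gave -0.41 at HBG2 (SE 0.12, unadjusted p = 0.00435, the 9th smallest of 38888) and -0.33 at HBG1 (SE 0.10, unadjusted p = 0.00492, the 12th smallest). Both had an adjusted p of 1.00. These 2 of 6 sites were lower at an unadjusted p under 0.05, as were 0.63% of all regions, and 0 of 6 sites and 0.0% of regions passed after adjustment. HBG2 and HBG1 also had the lower pileups in these libraries, and the part of pileup in the width was not tested.

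**Figure D4:**
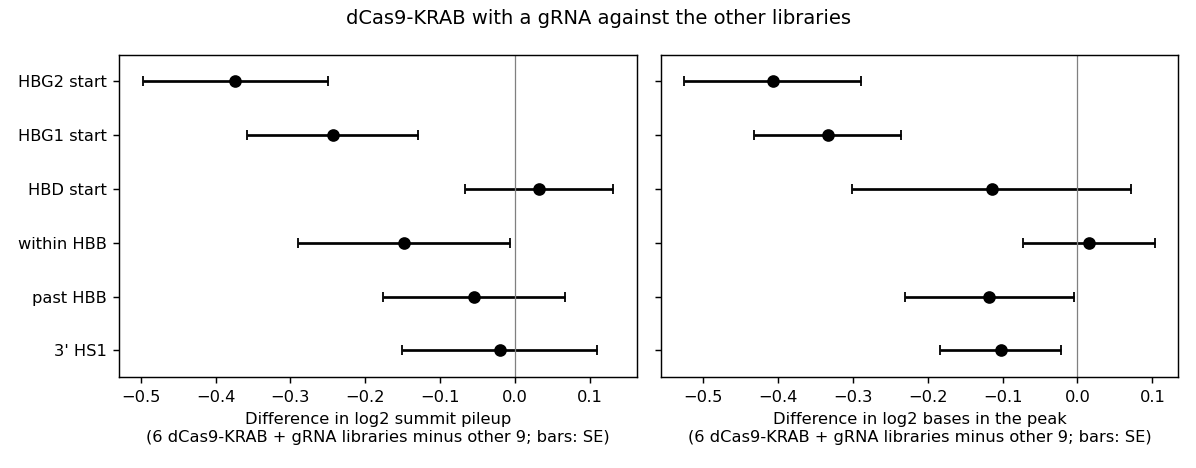
Difference of the 6 guided dCas9-KRAB libraries from the other 9, in log2 summit pileup (left) and log2 bases in the peak (right), for the 6 sites with a peak in every list, with SE bars from limma. HBG2 is at -0.37 and -0.41 and HBG1 at -0.24 and -0.33, and the SE bars of HBD reach across 0 in both panels. SE bars also stay below 0 at the site within HBB on the left (-0.148, SE 0.142). On the right they do so at 3′ HS1 (-0.102, SE 0.081) and at the site past HBB (-0.118, SE 0.112).

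By rank in lists of equal length, the site at which the pooled groups did not overlap was not a gene start. It lay at chr11:5279797-5280206 in hg19, about 4 kb upstream of HBG2, between HBG2 and the embryonic gene HBE1. Its peak was weak: where present, its fold ran from 4.29 to 6.20 and its relative pileup from 0.346 to 0.685. By relative pileup the pooled groups overlapped. The lowest value, 0.346, was in dCas9 with Cr10 replicate 2, and the guided dCas9-KRAB libraries with a peak had 0.348 to 0.429. It was present in 4 of 6 guided dCas9-KRAB libraries and in 9 of the other 9 (Fisher's exact test, two-sided, p = 0.143). In lists cut to equal length the counts were 3 of 6 and 9 of 9 (Fisher's exact test, p = 0.0440).

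The rank percentile of this upstream site was 7.36, 5.70 and 0 with dCas9-KRAB and Cr4, and 0, 0.757 and 0 with dCas9-KRAB and Cr10. It was 19.4, 28.1 and 8.14 with dCas9 and Cr4, 17.7, 14.9 and 8.57 with dCas9 and Cr10, and 22.7, 19.1 and 21.6 without a gRNA. In these equal-length lists all 6 guided dCas9-KRAB libraries lay below all other 9, with the narrowest gap between 7.36 and 8.14. The 0 of dCas9-KRAB with Cr4 replicate 3 is a peak of fold 4.29 that did not reach the 53098 strongest. The means were 2.30 ± 3.33 (SD, n = 6) and 17.8 ± 6.48 (SD, n = 9), a difference of -15.5 percentile points.

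This difference had an exact permutation p of 0.000599 and, in limma over 62858 regions, an SE of 3.81, an unadjusted p of 0.000933, the 3rd smallest, and an adjusted p of 1.00. It was 1 of the 4 regions, 0.00636% of those tested in equal-length lists, in which all 6 libraries were below all other 9. Without each library in turn the difference lay between -17.2 and -13.9. Of the 7 sites tested by rank, the upstream site was the 1 with an unadjusted p under 0.05 and a lower value, against 0.923% of regions, and 0 of 7 sites and 0.0% of regions passed after adjustment.

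In the deposited lists, which differ in length, the groups overlapped at the upstream site. Its percentile there was 26.4, 19.2 and 33.2 with dCas9-KRAB and Cr4, and 22.2 in the 1 library with dCas9-KRAB and Cr10 that had the peak. It was 37.5, 46.0 and 43.8 with dCas9 and Cr4, 17.7, 32.8 and 48.7 with dCas9 and Cr10, and 35.1, 51.4 and 31.7 without a gRNA. dCas9 with Cr10 replicate 1, whose list was the shortest, lay below all 4 guided dCas9-KRAB libraries with a peak. The pooled difference was -21.5 points in limma (adjusted p = 1.00), with 0 for no peak. The part of list length and depth in these ranks was not tested.

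**Figure D5:**
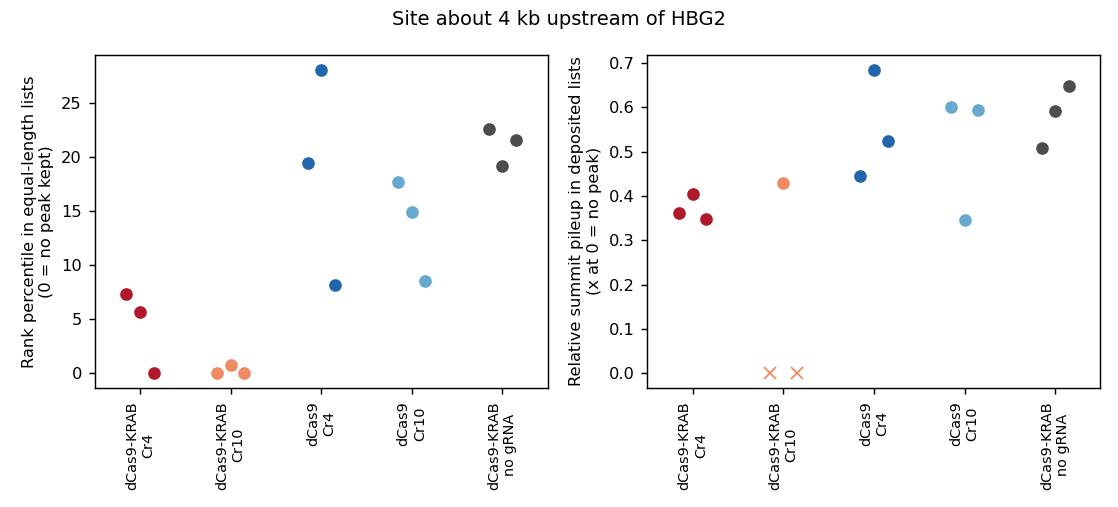
The site about 4 kb upstream of HBG2, 1 point per library in 5 groups: rank percentile in equal-length lists (left; 0 = no peak kept) and relative summit pileup in the deposited lists (right; crosses at 0 = no peak). All 6 guided dCas9-KRAB libraries are at or below 7.36 on the left, and the other 9 are at or above 8.14.

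In rank percentile the fetal gene starts themselves were lower as well. HBG2 averaged 47.9 ± 11.1 in the 6 libraries (SD, n = 6) and 57.8 ± 5.65 in the other 9 (SD, n = 9), with an exact permutation p of 0.0374. HBG1 averaged 44.8 ± 5.59 in the 6 and 53.4 ± 5.13 in the other 9, with an exact permutation p of 0.0112. Limma gave them unadjusted p-values of 0.0859 and 0.0853 and an adjusted p of 1.00 each. The difference at HBG2 was -9.87 percentile points, and -6.25 without dCas9-KRAB with Cr10 replicate 2 (limma unadjusted p = 0.256). HBD averaged 76.7 ± 6.32 in the 6 and 76.0 ± 5.42 in the other 9 (exact permutation p = 0.806).

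Group by group and by rank or pileup, dCas9-KRAB with Cr4 overlapped neither the libraries without a gRNA nor those of dCas9 with Cr4 at the fetal gene starts. Against no gRNA, its 3 libraries all ranked below the 3 others at 3 of 7 sites, namely HBG1, HBG2 and the upstream site, where 2.65% of all regions had such a gap. By pileup it was 2 of 6 sites, HBG1 and HBG2, against 2.38% of regions. HBG2 was lower by limma at -0.55 in log2 (SE 0.19, unadjusted p = 0.00853) and HBG1 at -0.51 (SE 0.18, unadjusted p = 0.00778), with adjusted p of 1.00. With 3 libraries on each side the design cannot give an exact permutation p below 0.1.

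Against dCas9 with the same gRNA, dCas9-KRAB with Cr4 ranked lower without overlap at 4 of 7 sites, namely HBD, HBG1, HBG2 and the upstream site, against 1.94% of regions. By pileup these were again HBG1 and HBG2, 2 of 6 sites against 1.76% of regions. HBG2 had a log2 difference of -0.47 (SE 0.19) and HBG1 of -0.34 (SE 0.18). HBD, which ranked at 71.6, 77.0 and 77.5 with dCas9-KRAB and Cr4 and at 85.8, 78.2 and 77.7 with dCas9 and Cr4, had a log2 pileup difference of -0.05 (SE 0.15).

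By rank and by pileup, dCas9-KRAB with Cr10 overlapped both of its comparison groups at the gene starts. Against no gRNA 1 of 7 sites by rank, the upstream site, lay lower without overlap (2.73% of regions), and 0 of 6 did by pileup (2.01% of regions). Against dCas9 with Cr10 it was again the upstream site, 1 of 7 by rank (2.29% of regions), and 0 of 6 by pileup (2.13% of regions). HBG2 was at -0.33 in log2 against no gRNA (SE 0.19) and at -0.22 against dCas9 with Cr10 (SE 0.19), and HBG1 at -0.25 and -0.01 (SE 0.18 each).

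The gRNAs under dCas9-KRAB were also set against each other. Cr4 was lower than Cr10 at HBG2 by -0.22 in log2 (SE 0.19, limma unadjusted p = 0.267) and at HBG1 by -0.27 (SE 0.18, unadjusted p = 0.144), so a difference between the gRNAs was not shown. HBG2 was the 1 of 6 sites lower without overlap by pileup, with 0.893 as the highest value for Cr4 and 0.903 as the lowest for Cr10, and 2.4% of regions had such a gap. By rank it was 0 of 7 sites, against 2.82% of regions. At HS2 the order of the gRNAs was the other way round, with a relative pileup of 1.13 ± 0.198 with Cr4 and 0.835 ± 0.224 with Cr10 (SD, n = 3 each).

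dCas9 without KRAB was set against no gRNA in the same way. With Cr4, 0 of 7 sites by rank (1.84% of regions) and 0 of 6 by pileup (1.27% of regions) were lower without overlap, and HBD ranked higher, 1 of 7 sites against 1.81% of regions. With Cr10, 1 of 7 by rank (2.6% of regions), the upstream site, and 0 of 6 by pileup (1.61% of regions) were lower. HBG2 was at -0.08 with Cr4 and -0.11 with Cr10 in log2 pileup (SE 0.19 each), and HBG1 at -0.18 and -0.23 (SE 0.18 each). Every comparison with no gRNA uses the same 3 libraries, so these are not independent of each other.

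No peak overlapped the window of 1 kb either side of the HBB start in any of the 15 lists. The files list only peaks over the authors' threshold, so openness below it cannot be read from them. The nearest peaks lay past the start, within and just beyond the gene, and were in all 15 lists. One, at chr11:5246781-5247127, had its summit about 1.4 kb past the start, inside the 1608 bp that RefSeq gives as the length of HBB. The other, at chr11:5245746-5246501, had its summit about 2.4 kb past the start.

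These were the lowest 2 pileups of the 6 sites in 15 of 15 libraries. The site within HBB had a relative pileup of 0.491 to 0.643 (median 0.557) in the 6 guided dCas9-KRAB libraries and of 0.410 to 0.844 (median 0.658) in the other 9. Its difference was -0.15 in log2 (SE 0.14; exact permutation p = 0.309). When libraries were left out in turn, this difference ran from -0.26 to -0.085. Limma's unadjusted p then ran from 0.0351 to 0.545. The site past HBB had 0.417 to 0.598 (median 0.517) in the 6 and 0.431 to 0.655 (median 0.519) in the other 9, a difference of -0.05 (SE 0.12; exact permutation p = 0.584). Among common regions, 16.5% had a lower mean than the site within HBB and 9.36% a lower mean than the site past it.

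Between HBD and HBG1 the RefSeq order places HBBP1, a transcribed pseudogene, and BGLT3, a long noncoding RNA gene. A pair of weak sites fell in this gap, with folds of 2.89 to 4.08. The site at chr11:5264683-5265136 had a peak in 3 of 6 guided dCas9-KRAB libraries and in 8 of the other 9 (Fisher's exact test, p = 0.235). Its neighbour at chr11:5264258-5264540 had a peak in 0 of 6 and in 3 of 9 (Fisher's exact test, p = 0.229), of which 2 were with dCas9 and Cr10 and 1 without a gRNA. Neither difference passed. In equal-length lists each had a peak in 1 library only, dCas9 with Cr10 replicate 1, whose list was the shortest and set that length.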

How the data were processed

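Open chromatin of 15 K562 libraries, 3 in each of 5 groups taken from titles and design text, was deposited as one peak list per library. Per the submitters' processing notes, CASAVA 1.3, BWA to hg19 and bedtools were used; the sources used here do not give the peak caller or its threshold. The authors' fold, a ratio of the summit to its local background, ranked peaks within a list. Deposited p-values and q-values are on a −log10 scale. The deposited score, a whole number, is 10 times the −log10 q-value cut to its integer part in at least 99.995% of peaks and was not used.

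The rest was computed here. Fold was read as (k + 1)/(λ + 1), with the p-value as the Poisson tail above k at mean λ, which fixes the whole number k, the summit pileup. Peaks on the autosomes and X overlapping by 1 bp were merged. Lists were shortened to 53098 peaks for the rank percentile, and 62858 regions seen in 3 or more libraries were tested. Pileup and width were tested at the 38888 regions found in all 15 lists. Limma 3.58.1 (R 4.3.3) fitted all 15 libraries in 5 groups with a mean-variance trend. Adjustment was by Benjamini-Hochberg over all regions, with a threshold of 0.05. Limma was also run on simulated data with independent noise and shifts larger than the pooled differences given here. Whether differences of the size seen here would pass was not tested. Exact permutation tests and Fisher's tests were two-sided (scipy 1.17.1, numpy 2.4.6, pandas 2.3.3, Python 3.11.15). Correlations used 100000 permutations.

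Named sites are all merged regions overlapping chr11:5220000-5288000, those within 1 kb of a gene start carrying its name, beside HS2 and the 3 regions most like each gene start with a peak in all lists. The gene starts are recalled, rounded hg19 positions that were not checked against an annotation; the RefSeq tables (GRCh38.p14) gave names, gene order, lengths and the promoter only. Members, sites and tests were chosen with earlier results of these data known, and width, local background and exact tests without single libraries were added after values were seen. Alternatives were list length, scale, filters, overlap, limma settings, centring, a block for the replicate number, and dropping single libraries. No pair of lists shared more than 0.00188% of peaks exactly, so none is a copy.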

Additional observations from a re-analysis of the deposited data

Results flagged for a closer look

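Of 39 checks of the highest or lowest library among the 6 with dCas9-KRAB and a gRNA or among the other 9, 2 stood apart from their group; chance gives about 1 in 20. At HBD, dCas9-KRAB with Cr10 replicate 1 had a rank percentile of 88.5, while the next highest of the 6 libraries had 77.5. At HBG2, dCas9-KRAB with Cr10 replicate 3 had a relative pileup of 1.13, while the next highest of the 6 had 0.929. Without the first library the HBD rank difference was -1.81 percentile points, against 0.785 with it. Without the second the HBG2 pileup difference was -0.44 in log2 (exact permutation p = 0.0145), against -0.37 with it (exact permutation p = 0.0220).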

How the results depend on the processing

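By limma 0 sites passed after adjustment in each of the 8 comparisons, by rank under all 11 other settings and by pileup under all 9, and when any library was left out. The pooled differences at HBG2 and HBG1 kept their direction under each of these settings, and that at the upstream site under the 10 rank settings that gave a value; among the 40000 strongest peaks it was in 1 library, and it has no pileup fit. Within replicate number 2 alone HBG1 pileup was 0.12 higher in log2 in the 6 libraries. Left-out libraries moved the rank difference between -12.3 and -6.25 at HBG2 and between -9.95 and -6.76 at HBG1, and HBG2 pileup between -0.47 and -0.31 and HBG1 between -0.33 and -0.17 in log2. With the authors' fold in place of pileup they were -0.16 and -0.14, and with no centring -0.45 and -0.32. HBG2 minus 3′ HS1 ran from -0.43 to -0.26 and HBG1 minus 3′ HS1 from -0.36 to -0.16 over left-out libraries, with exact p under 0.05 in the cases given above. Sites with differences near 0 changed sign, and the cause was not tested. At 3′ HS1 the rank difference was -0.0136 on the log2 scale of the rank and the pileup difference 0.00107 centred on the quiet background and 0.0127 by fold. At the site past HBB the rank difference was -1.09 in the deposited lists and the pileup difference 0.00317 by fold. At HBD the pileup difference was -0.046 without centring, and its r with HS2 was -0.0216 without 2 libraries. Over left-out libraries the rank difference ran from -1.07 to 2.86 at 3′ HS1, -2.25 to 5.86 past HBB and -1.81 to 2.50 at HBD. The pileup difference ran from -0.0968 to 0.080 at 3′ HS1, -0.114 to 0.0168 past HBB and -0.0298 to 0.0649 at HBD, and the width difference within HBB from -0.0213 to 0.0554. Same-numbered libraries deviated together (r over 0.1) in 19 of 30 pairs, with a median r of 0.13, and differently numbered ones in 16 of 60, with a median r of -0.12. Not every same-numbered pair was over 0.1 (r from -0.28 to 0.65). The main tests did not take the numbers as pairs, though same-numbered libraries deviated together more often. Exact tests of single sites were not repeated within replicate numbers. With the replicate number as a block, limma's difference at HBG2 was -0.37 (unadjusted p = 0.00302), 0 sites passed, and HBG2 minus 3′ HS1 had a permutation p of 0.071. At 3 libraries a group and unknown depth, weak sites such as the upstream one lie near the end of the lists.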
